A study of Mus musculus with 24 samples.

Results

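Gene expression on day 9 was compared with day 8 in control bone-marrow-derived dendritic cells, using the 3 libraries of day 9 and the 3 of day 8 that came from WT mice 63, 65 and 66. These 6 libraries were taken from 24 by their genotype and day labels, and each mouse gave 1 library on each day. The whole study followed WT and KO cultures daily from day 7 to day 10 to ask how differentiation changes when Arpc4 is lost, a gene for one of the proteins of the Arp2/3 complex that nucleates branched actin, and day 10 was its end point. WT cultures carried the genotype ARPC4 Flox/Flox CD11c-Cre -/-, so their Arpc4 alleles were floxed and no Cre was present. The KO cultures, used here only for comparison, were ARPC4 Flox/Flox CD11c-Cre +/-, in which Cre is driven by the promoter of the CD11c gene, and came from mice 64, 67 and 68. All mice were 8 to 10 weeks old and of both sexes. Per the labels' protocols, marrow was grown in medium with GM-CSF, cells were replated in fresh medium on days 4 and 7, adherent cells were discarded, and over 90% of the suspension cells carried CD11c by flow cytometry.

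GM-CSF is a growth factor that drives bone marrow progenitors into dendritic cells, macrophages and granulocytes, and such cultures hold dividing precursors beside cells that have left the cell cycle. NF-kB and the interferon pathway are known as routes by which myeloid cells answer microbes and tissue damage, and many of their target genes feed back on the pathway. Entry into mitosis is carried by a large group of genes that are switched on together late in the cell cycle, many of them through paired promoter elements bound by the NF-Y and DREAM or MuvB complexes.

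In the 6 libraries, totals were 25163904 to 28651870 counts on day 8 and 19952047 to 21278903 counts on day 9, so all day 9 libraries were shallower. Levels are CPM, gene counts scaled to library size with TMM factors, given in the order of mice 63, 65 and 66. Fold changes are log2 values of day 9 over day 8 from edgeR's quasi-likelihood fit over all 24 libraries, with their standard errors (SE), and a gene is said to have passed where its p, adjusted by Benjamini-Hochberg across 14535 tested genes, was under 0.05. Arpc4, the targeted gene, stood at 270, 246 and 265 CPM on day 8 and at 238, 219 and 226 CPM on day 9 in WT (log2 fold change -0.19, SE 0.07, adjusted p 0.0914), which did not pass. In the KO libraries its level was 223 to 231 CPM on day 8 and 199 to 204 CPM on day 9, below every WT library of the same day. That gap is small and the deleted stretch was not examined, so these gene-level counts do not check the deletion. Itgax, which encodes CD11c, was abundant in all 6 libraries. Itgax rose from 907, 1020 and 947 CPM to 1348, 1590 and 1440 CPM (log2 fold change 0.61, SE 0.17, adjusted p 0.0367).

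Between day 8 and day 9, 785 of 14535 genes passed the threshold (5.40%), 445 of them higher (3.06%) and 340 lower (2.34%) on day 9. Without adjustment, 3174 genes had a p under 0.05. The higher genes moved further than the lower ones: 191 rose and 27 fell by a log2 fold change of at least 1, and the median was 0.876 among the higher genes and -0.425 among the lower ones, with a median of -0.000139 over all genes tested. In all 785 the CPM values of the 2 days did not overlap and all 3 mice moved the same way. Non-overlap alone was common, since it held for 33.8% of all genes tested. The number of calls depended on the mice and on the libraries in the fit. Without mouse 63, 65 or 66 on all days it was 42, 38 or 17 (0.285%, 0.257% and 0.115% of the genes tested), with 0.0815%, 0.115% and 0.0405% higher and 0.204%, 0.142% and 0.0743% lower. Without any 1 of the 6 libraries it was 140 to 459. A fit of the 12 WT libraries alone called 2113 of 13933 genes (15.2%), 9.00% higher and 6.17% lower, against which list counts from that fit are to be read. Leaving out mouse 63, 65 or 66 there called 8.04%, 7.80% and 5.89%, with 5.10%, 5.49% and 4.06% higher and 2.94%, 2.31% and 1.83% lower. After thinning every library to 19952047 counts, which removes the depth difference between the days, 737 genes passed (440 higher and 297 lower), 658 of them among the 785.

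**Figure D1:**
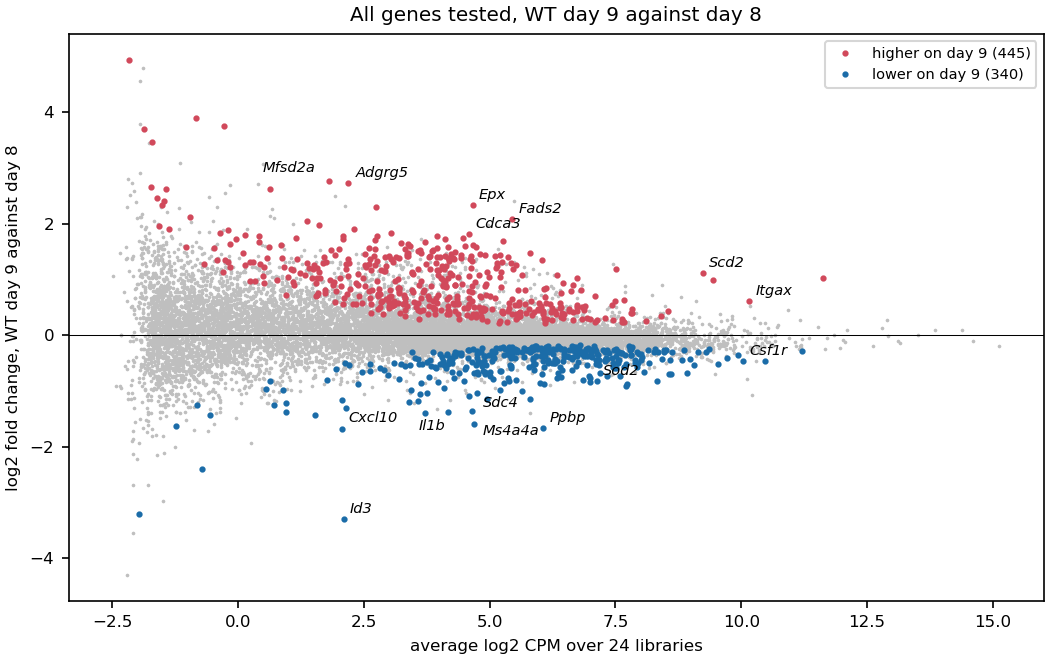
Each point is 1 of 14535 genes, with its average log2 CPM over the 24 libraries on the horizontal axis and its log2 fold change of WT day 9 over day 8 on the vertical axis; red points are the 445 higher genes and blue points the 340 lower genes. The higher genes spread to larger fold changes than the lower ones, and Id3, at -3.29, stands furthest below 0 among the named genes.

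Mitosis genes were the list with the most calls. Of 40 mitosis genes listed, 28 rose and 0 fell, and the median log2 fold change was 1.32. Cdca3, which helps trigger mitotic entry, rose from 11.4, 7.12 and 10.5 CPM to 37.2, 29.1 and 35.3 CPM (log2 fold change 1.81, SE 0.38, adjusted p 0.0106). Ccnb2, a cyclin that activates Cdk1, rose from 9.85, 7.27 and 9.17 CPM to 34.6, 23.9 and 29.2 CPM (1.74, SE 0.40, adjusted p 0.0171). Mouse 65 was lowest on both days for these 2 genes, and the days were well apart in each mouse. Anln, a scaffold of the cleavage furrow, rose from 14.1, 9.69 and 12.3 CPM to 41.5, 30.0 and 36.8 CPM (1.58, SE 0.35, adjusted p 0.0145). Cenpa, the histone that marks centromeres, changed less but more evenly, from 35.5, 36.3 and 34.3 CPM to 64.0, 59.2 and 62.7 CPM (0.81, SE 0.13, adjusted p 0.00137). Cdc25c, the phosphatase that activates Cdk1, rose from 2.27, 1.15 and 1.56 CPM to 6.51, 5.35 and 5.41 CPM (1.79, SE 0.42, adjusted p 0.0189). Across the listed genes the average log2(CPM + 1) changed by 1.25, 1.19 and 1.23 in the 3 mice, so the mice moved by nearly equal amounts.

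Other mitosis genes that rose carried fold changes in the same range. The kinases were Plk1 (1.45), Ttk (1.18), Bub1b (1.30), Aurkb (1.21) and Cdk1 (1.05). The motor proteins were Kif2c (1.67), Kif20a (1.44), Kif23 (1.29) and Kif4 (1.40), which position and separate chromosomes and cut the cell. Foxm1 (1.44), a transcription factor of the late cell cycle, and the proliferation marker Mki67 (1.20) rose as well. The 12 listed genes that did not pass included Ccnb1 (1.33, adjusted p 0.0507), Aurka (1.04, adjusted p 0.0507) and Top2a (1.28, adjusted p 0.0557). Pttg1, the securin that inhibits separase until chromatids part, was the 1 member with a negative value (-0.05, adjusted p 0.841). Of these 40 genes, 0 passed without mouse 63, 1 without mouse 65 and 0 without mouse 66. In the fit of the 12 WT libraries 39 passed, also without any 1 of the mice.

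Promoters of 3 of these genes are shown because the listed genes moved together and because the 3 hold the CHR and NF-Y motifs that are known from late cell cycle genes. The sequences are RefSeq promoters on GRCm38.p6, from 250 bases before to 50 bases after the transcription start, written 5′ to 3′ along the gene. Cdca3 is at chr6:124829926-124830225 on the forward strand, Ccnb2 at chr9:70421505-70421804 on the reverse strand and Cenpa at chr5:30666636-30666935 on the forward strand. Capitals mark CHR (TTTGAA or TTCGAA) and NF-Y (CCAAT) on either strand.
Cdca3: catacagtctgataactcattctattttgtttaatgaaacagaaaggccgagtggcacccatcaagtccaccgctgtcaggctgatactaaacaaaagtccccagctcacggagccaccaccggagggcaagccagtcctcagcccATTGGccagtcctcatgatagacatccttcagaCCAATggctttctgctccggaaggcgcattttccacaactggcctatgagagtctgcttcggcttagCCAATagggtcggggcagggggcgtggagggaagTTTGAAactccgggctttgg
Ccnb2: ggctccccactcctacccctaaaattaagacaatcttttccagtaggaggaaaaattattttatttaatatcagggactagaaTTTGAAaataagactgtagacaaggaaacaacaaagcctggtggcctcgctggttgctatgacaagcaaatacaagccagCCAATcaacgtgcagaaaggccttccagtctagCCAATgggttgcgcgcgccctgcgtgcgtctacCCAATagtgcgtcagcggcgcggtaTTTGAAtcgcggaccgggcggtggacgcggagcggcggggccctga
Cenpa: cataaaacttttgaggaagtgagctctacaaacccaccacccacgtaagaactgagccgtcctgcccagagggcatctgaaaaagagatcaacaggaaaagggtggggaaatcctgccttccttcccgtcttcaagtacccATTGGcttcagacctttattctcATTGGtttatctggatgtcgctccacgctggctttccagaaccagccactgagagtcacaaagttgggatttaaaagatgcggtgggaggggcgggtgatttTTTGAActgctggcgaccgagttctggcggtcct
Promoters of 23 of the 28 mitosis genes that rose were in the table, with 25 entries. CHR was found in 21 of them (84.0%) and in 19.2% of all 32851 promoters. NF-Y was found in 19 (76.0%) and in 37.4% of all promoters. Over all 40 listed genes, 36 entries for 34 genes, the shares were 77.8% for each motif. NF-Y was also common in other lists: 84.2% of 19 entries for cholesterol genes, 61.1% of 18 for fatty acid genes and 48.7% of 39 for S phase genes held it. CHR was in 10.5%, 16.7% and 20.5% of the same entries. A match shows only that these letters are in the window.

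**Figure D2:**
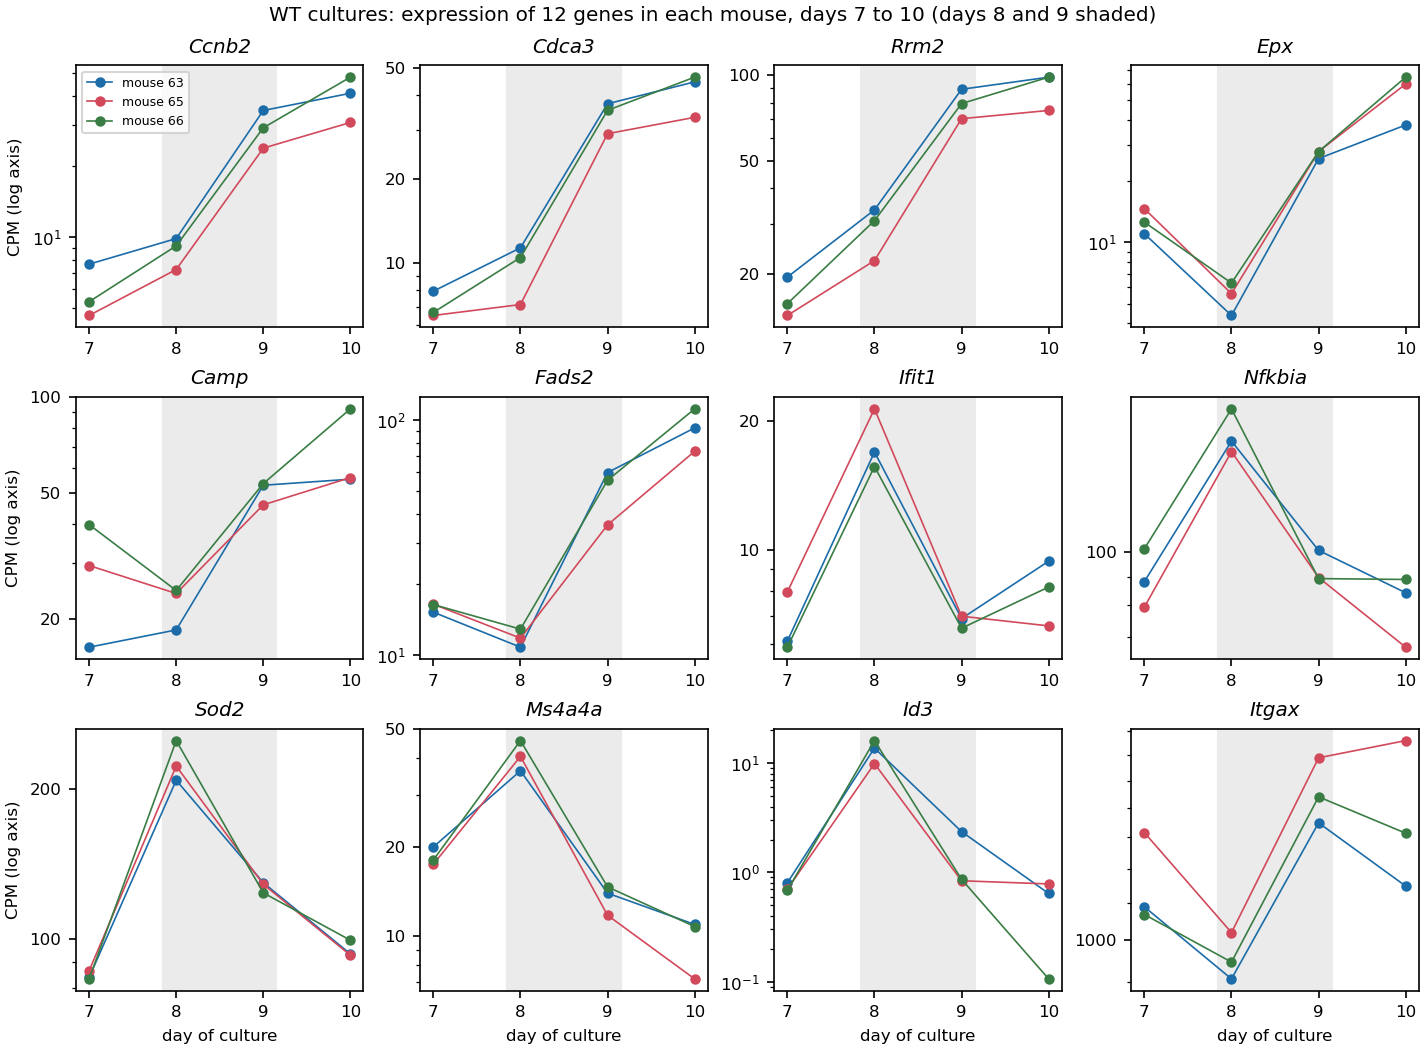
Each panel shows the CPM of 1 gene (log axis) against the day of culture in WT, with 1 line per mouse and days 8 and 9 shaded. Ccnb2, Cdca3 and Rrm2 climb from day to day in each mouse, Epx, Fads2 and Itgax are lowest on day 8, Camp is higher on day 9 than on day 8, and Ifit1, Nfkbia, Sod2, Ms4a4a and Id3 peak on day 8 in all 3 mice.

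DNA replication genes had positive values too, with smaller changes. Of 40 S phase genes listed, 11 rose and 0 fell, all 40 had positive values, and the median was 0.71. Rrm2, a subunit of ribonucleotide reductase, which makes deoxynucleotides, rose from 33.5, 22.2 and 30.7 CPM to 89.1, 70.2 and 79.4 CPM (log2 fold change 1.47, SE 0.35, adjusted p 0.0204). Chaf1b, part of a chaperone that places histones on new DNA, rose from 12.5, 10.0 and 12.9 CPM to 25.3, 19.5 and 20.2 CPM (0.88, SE 0.15, adjusted p 0.00332). Dscc1, a loader of the replication clamp, rose from 1.26, 0.80 and 1.04 CPM to 3.23, 2.05 and 2.86 CPM (1.39, SE 0.28, adjusted p 0.00906). Days did not overlap for these genes, and mouse 65 was lowest on both days. Tk1 (1.51), Lig1 (1.13), Mcm7 (1.07), Cdc6 (0.96) and Rrm1 (0.93) also passed. Fen1 (0.65) passed, but Tmem258 on the opposite strand has 95.3% as many counts, and the strand setting of the counting is not given in the sources used here, so its value is uncertain. The clamp itself, Pcna, had a value of 0.21 (adjusted p 0.144), and Mcm3 had 0.66 (adjusted p 0.0698). The E2F motif (TTTGGCGC or TTTCGCGC on either strand) was in 23.1% of 39 promoter entries for the listed genes and in 13.3% of 15 entries for those that rose, against 0.813% of all promoters. Of the 40 genes, 0 passed without mouse 63, 65 or 66, while 36 passed in the fit of the 12 WT libraries and 31, 32 and 26 when that fit left out those mice.

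Inhibitors of cyclin-dependent kinases moved in both directions. Among 12 listed inhibitors, D cyclins and their kinases, 2 rose and 1 fell. Cdkn2c, which blocks Cdk4 and Cdk6, rose from 4.33, 2.79 and 3.15 CPM to 12.9, 9.12 and 10.6 CPM (1.66, SE 0.36, adjusted p 0.0129). Cdkn2d, of the same family, rose from 9.75, 8.69 and 9.77 CPM to 19.3, 15.4 and 17.1 CPM (0.88, SE 0.23, adjusted p 0.0307). Cdkn1a, the p21 inhibitor that answers p53 and stress, fell from 790, 724 and 769 CPM to 514, 558 and 511 CPM (-0.53, SE 0.12, adjusted p 0.0195). The groups of 3 did not overlap for any of these. Ccnd1 (-0.17), Ccnd2 (-0.09) and Ccnd3 (0.41) did not pass. These 3 calls were lost without mouse 63, 65 or 66. In the fit of the 12 WT libraries they held, also without each mouse, except Cdkn1a without mouse 66.

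Some markers of granulocytes rose over the same day. Of 9 eosinophil markers, 3 rose and 0 fell, with 8 positive values, 1 negative one (-0.39) and a median of 0.71. Their summed level went from 82.3 to 98.3 CPM on day 8 to 155 to 173 CPM on day 9. Epx, the eosinophil peroxidase, rose from 4.37, 5.59 and 6.30 CPM to 25.7, 27.9 and 27.9 CPM (log2 fold change 2.33, SE 0.35, adjusted p 0.00101). The 3 values of each day lay close together and far from the other day. Prg3, a granule protein, rose from 1.12, 0.92 and 1.32 CPM to 3.28, 3.72 and 2.63 CPM (1.52, SE 0.38, adjusted p 0.0274). Siglecf, a surface lectin of eosinophils, rose from 12.6, 13.5 and 15.1 CPM to 24.9, 24.5 and 26.4 CPM (0.88, SE 0.18, adjusted p 0.00906). Prg2 (0.71, adjusted p 0.144) and Ear1 (1.23, adjusted p 0.123) did not pass. None of the 9 markers was at 0 in all 3 libraries of either day. Without mouse 63, 65 or 66, 1, 0 and 0 of the 9 passed, and 6 did in the fit of the 12 WT libraries.

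Among 14 neutrophil markers 2 rose and 0 fell, and 11 had positive values and 3 negative ones, down to -0.42. Their median was 0.54, and their summed level was 3573 to 4359 CPM on day 8 and 5271 to 5572 CPM on day 9. Camp, an antimicrobial granule peptide, rose from 18.5, 24.1 and 24.7 CPM to 52.9, 45.9 and 53.5 CPM (1.18, SE 0.28, adjusted p 0.0204). Ngp, another granule protein, rose from 337, 421 and 443 CPM to 846, 732 and 818 CPM (1.00, SE 0.28, adjusted p 0.0398). Mouse 63 was lowest of the 3 on day 8 for both genes and was not lowest on day 9. The early granule enzymes Elane (0.92), Mpo (0.91) and Prtn3 (0.84) and the surface marker Ly6g (1.02) did not pass, and neither did S100a8 (0.39) and S100a9 (0.30). Both calls were lost without mouse 63, 65 or 66. The part of granulocyte precursors in the rise of mitosis and S phase genes was not tested. In bulk RNA a change in the number of cells of a type and a change in RNA per cell cannot be told apart.

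A few macrophage markers fell. Of 12 tested, 2 fell, 0 rose and 11 had negative values, with a median of -0.29, and the summed level of the list went from 5346 to 5734 CPM to 4252 to 4481 CPM. Csf1r, the receptor for the macrophage growth factor M-CSF, fell from 1106, 1225 and 1204 CPM to 853, 879 and 837 CPM (log2 fold change -0.46, SE 0.07, adjusted p 0.00137). C1qb, a subunit of the complement protein C1q, fell from 406, 465 and 482 CPM to 286, 298 and 249 CPM (-0.70, SE 0.20, adjusted p 0.0402). C1qc (-0.58), C1qa (-0.50) and Adgre1 (-0.39) did not pass. Of 12 dendritic cell markers 1 rose, Itgax, and 9 had positive values and 3 negative ones, down to -0.82. Their median was 0.36, and the summed level of the list went from 2931 to 3425 CPM to 4222 to 4528 CPM. Cd209a (1.31, adjusted p 0.105), Dpp4 (1.18, adjusted p 0.244) and H2-Ab1 (0.62, adjusted p 0.338) had positive values that did not pass. Without mouse 63, 65 or 66, 1, 0 and 0 of the macrophage markers passed and 0 of the dendritic cell markers did, while 7 of each list passed in their direction in the fit of the 12 WT libraries.

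Markers of other cell types held 1 call. Of 10 monocyte markers tested 0 passed, and their summed level was 1740 to 2115 CPM on day 8 and 1832 to 2466 CPM on day 9. Mast cell and basophil markers (93.9 to 129 and 99.3 to 123 CPM), B cell and plasma cell markers (26.8 to 40.9 and 20.97 to 37.5 CPM) and fibroblast and endothelial markers (38.6 to 64.0 and 44.4 to 59.3 CPM) held 0 calls. Plasmacytoid dendritic cell markers held 0 as well (145 to 156 and 123 to 135 CPM). T and NK cell markers summed to 0.978 to 1.38 CPM and 1.32 to 1.83 CPM, with 4 of 11 tested and 0 called. Of 11 erythroid and megakaryocyte markers 5 were tested and 1 fell, Ppbp, and 2 passed as lower with the mouse as a block. Their summed level was 439 to 494 CPM on day 8 and 246 to 294 CPM on day 9, and 4 and 3 of the 11 were at 0 in all 3 libraries of those days.

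Genes that present antigen on MHC class II had a median of 0.37 over 18 members, with 14 positive and 4 negative values, and 0 passed in either direction. Cd74, the invariant chain, stood at 1364, 1334 and 1713 CPM on day 8 and at 1987, 1891 and 2123 CPM on day 9, without overlap (0.44, SE 0.28, adjusted p 0.381). Ciita, the master activator of these genes, stood at 28.5, 29.6 and 31.5 CPM on day 8 and at 71.4, 57.4 and 65.2 CPM on day 9, also without overlap (1.115, SE 0.46, adjusted p 0.153). In the fit of the 12 WT libraries 6 of the 18 passed as higher and 1 as lower, where 9.00% and 6.17% of all genes did.

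Fatty acid and cholesterol synthesis held 3 rising genes each. Of 16 fatty acid genes 3 rose and 0 fell (median 0.34), all 3 of them desaturases. Fads2, which starts the synthesis of polyunsaturated fatty acids, rose from 10.8, 11.8 and 12.9 CPM to 59.7, 35.8 and 55.3 CPM (log2 fold change 2.08, SE 0.50, adjusted p 0.0228). Scd2, which makes monounsaturated fatty acids, rose from 321, 286 and 337 CPM to 703, 533 and 809 CPM (1.12, SE 0.27, adjusted p 0.0212). Mouse 65 was lowest on day 9 for both. Fads1, which acts after Fads2, rose from 73.0, 77.5 and 77.9 CPM to 104, 102 and 104 CPM (0.44, SE 0.11, adjusted p 0.0226). Scd1 had a value of 1.54 (adjusted p 0.0783), and Fasn, Acaca and Acly had 0.34, 0.23 and -0.02.

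Of 23 cholesterol genes 3 rose, 0 fell and 22 had positive values (median 0.24). Fdps, which makes farnesyl diphosphate, rose from 2.45, 2.26 and 2.75 CPM to 6.27, 6.19 and 6.72 CPM (1.36, SE 0.27, adjusted p 0.00784). Dhcr7, the last reductase of the pathway, rose from 49.4, 45.1 and 50.6 CPM to 68.1, 72.2 and 69.2 CPM (0.53, SE 0.11, adjusted p 0.00861), and Mvd (0.45) also passed. All 6 lipid calls were lost without mouse 63, 65 or 66, and 7 genes of each list passed as higher in the fit of the 12 WT libraries. Without those mice in turn, that fit called 4, 9 and 4 fatty acid genes and 2, 6 and 3 cholesterol genes as higher. The sterol element (TCACNCCAC on either strand) was in 0 of 4 promoter entries for cholesterol genes that rose and in 1 of 19 for those tested (5.26%), against 1.24% of all promoters.

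**Figure D3:**
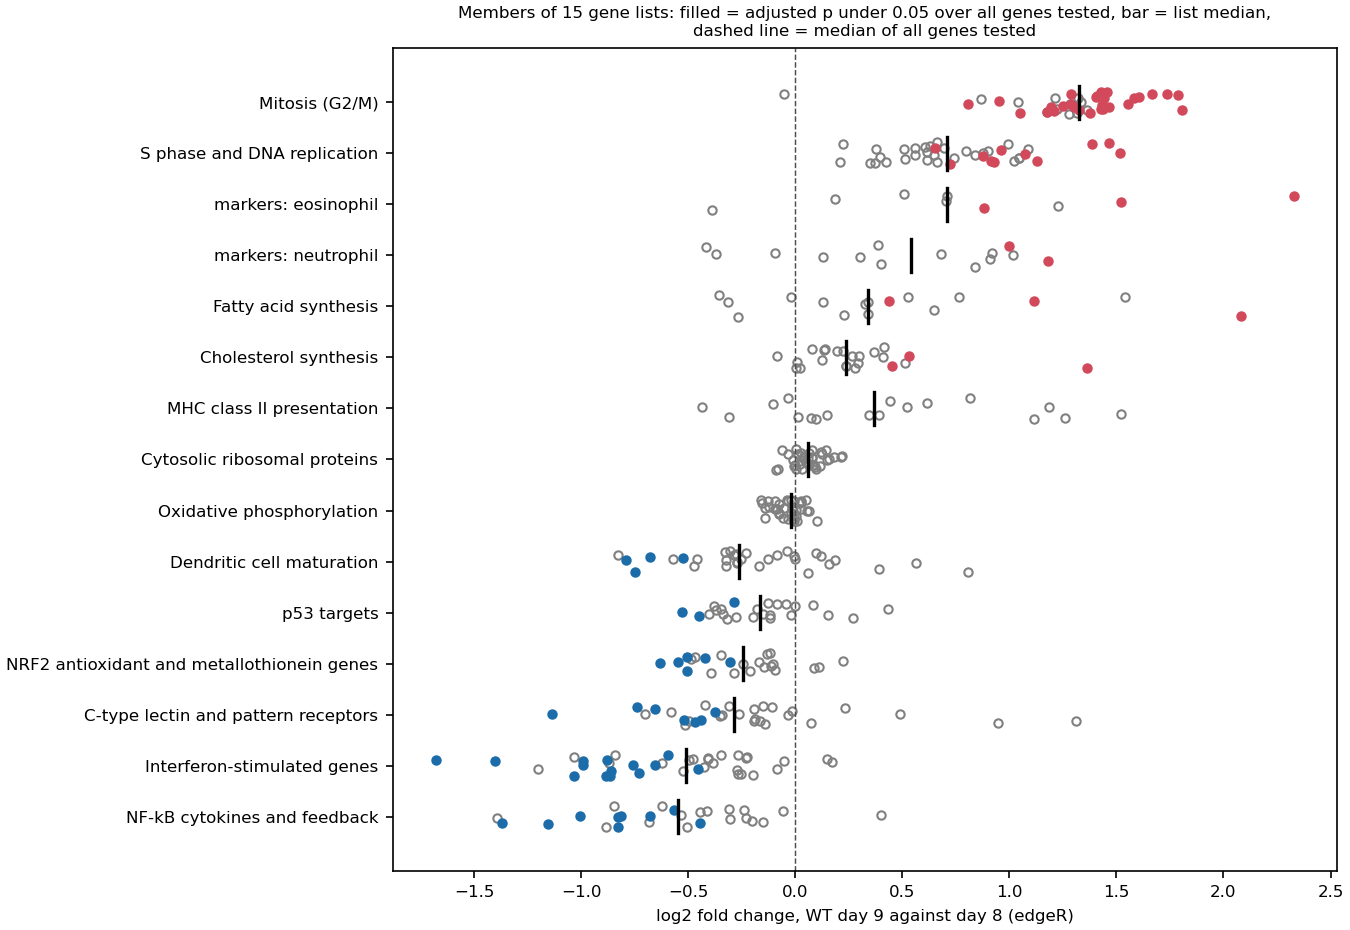
Each point is 1 gene of 15 lists, placed by its log2 fold change of WT day 9 over day 8; filled points passed the adjusted p of 0.05 over all genes tested, bars are list medians and the dashed line is the median of all genes. The mitosis list lies almost wholly to the right with a median of 1.32, the interferon-stimulated and NF-kB lists lie mostly to the left, and ribosomal protein and oxidative phosphorylation genes lie close to 0.

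Several targets and inhibitors of NF-kB were lower on day 9. Of 26 NF-kB cytokine and feedback genes tested, 9 fell, 0 rose and 25 had negative values, with a median of -0.55. Sod2, the mitochondrial superoxide dismutase, fell from 208, 222 and 250 CPM to 130, 129 and 124 CPM (log2 fold change -0.83, SE 0.10, adjusted p 0.000118). Nfkbia, the inhibitor that holds NF-kB in the cytoplasm, fell from 159, 152 and 181 CPM to 101, 89.8 and 89.5 CPM (-0.81, SE 0.12, adjusted p 0.000707). Tnfaip3, which ends NF-kB signalling by editing ubiquitin chains, fell from 53.1, 66.1 and 66.7 CPM to 41.5, 41.3 and 42.6 CPM (-0.57, SE 0.08, adjusted p 0.000873). For these genes mouse 66 was highest on day 8 and the 3 mice lay closer together on day 9. Tnfaip2, induced by TNF, fell from 573, 622 and 720 CPM to 405, 396 and 396 CPM (-0.68, SE 0.08, adjusted p 0.000169). The cytokine Il1b fell from 22.8, 26.5 and 43.0 CPM to 10.3, 10.4 and 14.9 CPM (-1.37, SE 0.30, adjusted p 0.0124). Ptgs2, which makes prostaglandins, fell from 4.86, 5.59 and 6.54 CPM to 2.65, 2.05 and 2.91 CPM (-1.16, SE 0.34, adjusted p 0.0477), a call lost after thinning to equal depth.

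The chemokine Cxcl2 (-1.01), the adhesion molecule Icam1 (-0.45) and the inhibitor Nfkbie (-0.83) fell as well. The cytokines Tnf (-0.45, adjusted p 0.222), Il1a (-0.62, adjusted p 0.0820) and Il6 (-0.06, adjusted p 0.963) did not pass. Lcn2 was the 1 member with a positive value (0.40, adjusted p 0.460). Without mouse 63, 65 or 66, 5, 3 and 2 of the 26 passed as lower, and 17 did in the fit of the 12 WT libraries. Sod2 and Tnfaip2 kept their call in each of these fits, and Nfkbia lost it without mouse 66.

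Promoters of Nfkbia (chr12:55492598-55492897, reverse strand) and Sod2 (chr17:13007589-13007888, forward strand), from the same table, are shown because these genes were among the steadiest to fall. Capitals mark the NF-kB consensus on either strand, a motif chosen after the values were seen.
Nfkbia: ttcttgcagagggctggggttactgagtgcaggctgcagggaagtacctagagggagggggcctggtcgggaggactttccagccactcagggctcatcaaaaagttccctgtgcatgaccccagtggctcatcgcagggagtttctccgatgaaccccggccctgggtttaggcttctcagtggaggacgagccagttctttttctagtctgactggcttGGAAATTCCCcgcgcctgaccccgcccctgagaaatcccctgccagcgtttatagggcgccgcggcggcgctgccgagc
Sod2: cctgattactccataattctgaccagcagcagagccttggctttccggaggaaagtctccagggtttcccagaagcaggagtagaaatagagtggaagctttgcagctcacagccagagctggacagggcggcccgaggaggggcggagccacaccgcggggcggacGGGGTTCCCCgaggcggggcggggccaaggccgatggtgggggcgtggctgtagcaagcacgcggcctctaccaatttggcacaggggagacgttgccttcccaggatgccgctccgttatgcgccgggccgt
Of 10 promoter entries for the 9 NF-kB genes that fell, 6 held this motif (60.0%), against 8.46% of all 32851 promoters. Over the 26 genes tested, 21 genes had 26 entries, and 42.3% held it.

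Maturation genes and receptors for microbial products held further falling genes. Among 32 dendritic cell maturation genes 4 fell and 0 rose (median -0.26). Nfkb2, the precursor of the alternative NF-kB subunit, fell from 100, 100 and 117 CPM to 74.5, 58.7 and 65.7 CPM (-0.68, SE 0.11, adjusted p 0.00210). Its partner Relb fell from 37.2, 38.7 and 46.7 CPM to 26.3, 21.8 and 22.8 CPM (-0.79, SE 0.17, adjusted p 0.0122), and the survival factor Birc3 (-0.53) and Marcksl1 (-0.75) also passed. The co-stimulatory molecules Cd80 (-0.32), Cd86 (-0.13) and Cd40 (-0.57) and the homing receptor Ccr7 (-0.25) did not pass. Of 30 C-type lectin and pattern receptors 7 fell and 0 rose (median -0.29). Clec4e, or Mincle, which binds mycobacterial glycolipid, fell from 76.7, 94.5 and 93.3 CPM to 37.4, 38.5 and 44.3 CPM (-1.14, SE 0.23, adjusted p 0.00906).

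Clec4n, or Dectin-2, fell from 1919, 2058 and 2029 CPM to 1343, 1599 and 1404 CPM (-0.47, SE 0.12, adjusted p 0.0274). The receptors for bacterial lipopeptide and lipopolysaccharide, Tlr2 (-0.65, adjusted p 0.0322) and Tlr4 (-0.52, adjusted p 0.0323), fell, as did Tlr1 (-0.74), Clec5a (-0.37) and the inhibitory Fc receptor Fcgr2b (-0.44). The endosomal receptors Tlr7 (-0.15), Tlr9 (0.23) and Tlr13 (-0.11) did not pass. Without mouse 63, 65 or 66, 1, 0 and 0 maturation genes passed, and 0 receptors did. The fit of the 12 WT libraries called 13 receptors as lower and 2 as higher.

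Some interferon-stimulated genes were lower on day 9. Of 38 tested, 14 fell and 0 rose, 36 had negative values and the median was -0.51. Ifit1, which blocks translation of viral RNA, fell from 16.9, 21.4 and 15.7 CPM to 6.89, 6.98 and 6.54 CPM (log2 fold change -1.40, SE 0.29, adjusted p 0.00925). Rsad2, the antiviral enzyme viperin, fell from 39.8, 55.2 and 36.0 CPM to 18.9, 27.3 and 19.7 CPM (-0.99, SE 0.22, adjusted p 0.0144). Mouse 65 was highest for both on each day. Parp14, an ADP-ribosyltransferase, fell from 175, 212 and 178 CPM to 113, 112 and 116 CPM (-0.73, SE 0.13, adjusted p 0.00461). The chemokine Cxcl10 fell from 6.29, 6.97 and 8.06 CPM to 2.603, 2.001 and 2.045 CPM (-1.68, SE 0.43, adjusted p 0.0288).

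Isg15 (-0.87), Ifit3 (-0.99), Oasl2 (-0.88), Oas2 (-0.86), Mx2 (-0.88), Rtp4 (-1.03) and Cmpk2 (-0.76) fell too. Igtp passed (-0.66, adjusted p 0.00784), but Irgm2 overlaps it on the same strand with 156% of its counts and also fell (-0.54), so the share of each is uncertain. The transcription factors Stat2 (-0.25), Irf9 (-0.27) and Irf7 (-0.84) did not pass, and the guanylate-binding proteins Gbp2 (-0.05), Gbp3 (0.17) and Gbp5 (-0.20) did not either. Averaged over the list, log2(CPM + 1) went from 4.97, 5.08 and 4.92 to 4.45, 4.52 and 4.43, a change of -0.52, -0.56 and -0.50 in the 3 mice. Of the 38 genes, 0 passed without mouse 63, 65 or 66, and 27 passed as lower in the fit of the 12 WT libraries, 21, 15 and 16 without those mice.

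Promoters of Ifit1 (chr19:34640639-34640938, forward strand) and Isg15 (chr4:156200769-156201068, reverse strand), again from RefSeq on GRCm38.p6, are shown as members with several copies of the interferon response motif. Capitals mark ISRE (GAAANNGAA) on either strand, and overlapping matches run together.
Ifit1: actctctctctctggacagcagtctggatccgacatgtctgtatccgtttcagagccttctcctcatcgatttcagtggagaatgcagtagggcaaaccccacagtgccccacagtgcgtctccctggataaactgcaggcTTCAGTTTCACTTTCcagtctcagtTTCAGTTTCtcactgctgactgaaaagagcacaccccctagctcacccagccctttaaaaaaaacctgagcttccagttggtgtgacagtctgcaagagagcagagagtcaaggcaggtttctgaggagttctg
Isg15: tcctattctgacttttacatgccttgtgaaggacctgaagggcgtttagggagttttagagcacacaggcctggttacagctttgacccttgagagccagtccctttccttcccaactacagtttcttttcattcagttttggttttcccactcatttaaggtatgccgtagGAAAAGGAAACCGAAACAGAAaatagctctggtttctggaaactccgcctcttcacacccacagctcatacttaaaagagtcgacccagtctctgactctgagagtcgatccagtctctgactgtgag
Of the 14 interferon-stimulated genes that fell, 10 had a promoter entry, and 7 of these held ISRE (70.0%), against 8.56% of all promoters. Over the whole list, 28 genes had 32 entries, and 59.4% held it.

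**Figure D4:**
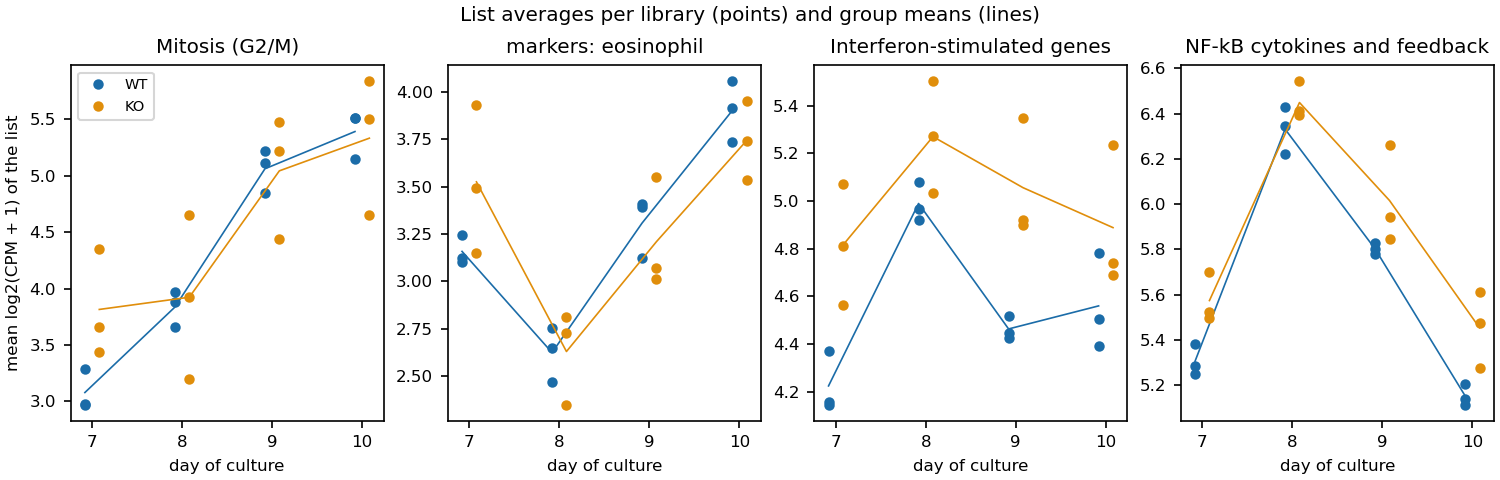
Each point is the mean log2(CPM + 1) of a gene list in 1 library, in blue for WT and orange for KO, against the day of culture, with lines through group means. In WT the mitosis and eosinophil lists are higher on day 9 than on day 8 and the interferon-stimulated and NF-kB lists are lower, without overlap between the 2 days.

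Genes of the oxidative stress response, governed by the factor NRF2, were among those that fell. Of 23 listed with metallothioneins, 6 fell and 0 rose (median -0.24). Nfe2l2, which encodes NRF2, fell from 340, 390 and 410 CPM to 277, 282 and 292 CPM (-0.42, SE 0.07, adjusted p 0.00150). Txnrd1, a thioredoxin reductase, fell from 280, 329 and 302 CPM to 209, 222 and 212 CPM (-0.50, SE 0.11, adjusted p 0.0125). Gclm (-0.50) and Gclc (-0.30), which make glutathione, Srxn1 (-0.63) and the zinc exporter Slc30a1 (-0.55) passed too, while Hmox1 (-0.21) and Nqo1 (-0.49) did not. Of 24 p53 targets 3 fell (Fas, -0.53, Ccng1, -0.45, and Ei24, -0.28) and 0 rose, with a median of -0.16. Of 21 genes of the PPAR gamma lipid program 2 fell, Cpt1a (-0.52), which brings fatty acids into mitochondria, and Angptl4 (-1.03), an inhibitor of lipoprotein lipase. Without mouse 63, 65 or 66, 1, 0 and 0 of the NRF2 list passed, and 0 of the p53 list did.

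The single genes with the largest changes lay partly outside these lists. Id3, an inhibitor of basic helix-loop-helix factors, fell most among the named genes, from 13.8, 9.92 and 16.1 CPM to 2.36, 0.84 and 0.86 CPM (log2 fold change -3.29, SE 0.64, adjusted p 0.00766). Mouse 63 had the highest level on day 9. All 3 values of day 8 were far above those of day 9. Ms4a4a, a membrane protein of macrophages (chromosome 19, 11375523 to 11392790, forward strand, GRCm38), fell from 36.2, 40.5 and 45.8 CPM to 13.98, 11.77 and 14.68 CPM (-1.60, SE 0.17, adjusted p 5.52e-05). Its relative Ms4a6b fell by less (-1.20, SE 0.25, adjusted p 0.0103). Sdc4, the heparan sulfate carrier syndecan-4 (chromosome 2, 164424247 to 164443887, reverse strand), fell from 43.4, 47.9 and 47.1 CPM to 18.99, 17.22 and 17.76 CPM (-1.36, SE 0.15, adjusted p 5.52e-05). Ms4a4a and Sdc4 kept their calls in all 23 alternatives, with log2 fold changes of -1.71 to -1.51 and -1.44 to -1.27.

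Ppbp, a chemokine precursor of platelets and some myeloid cells, fell from 101, 125 and 108 CPM to 28.6, 42.9 and 33.7 CPM (-1.66, SE 0.39, adjusted p 0.0189). The adhesion receptor Adgre4 (-1.19), the kinase Dmpk (-1.30) and Gucy1b1 (-1.43), a subunit of the nitric oxide receptor, completed the 12 largest falls. Adgre4 and Dmpk lost their calls after thinning to equal depth. Among the 12 largest rises, Mfsd2a, a transporter of lysophosphatidylcholine, went from 0.80, 0.54 and 0.60 CPM to 4.77, 3.58 and 5.00 CPM (2.77, SE 0.65, adjusted p 0.0204). Adgrg5, an adhesion receptor, rose from 0.91, 0.42 and 0.48 CPM to 5.11, 2.23 and 4.82 CPM (2.72, SE 0.71, adjusted p 0.0306). Gfra2 (2.04), a receptor for neurturin, Fam83d (1.97), Pimreg (1.83) and Aspm (1.78), the last 3 with known roles at the mitotic spindle or in dividing cells, were others.

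Mxd3 (1.90) passed, but Prelid1 on the opposite strand has 9950% of its counts, so its level is uncertain. Klk1b9 (2.30, adjusted p 0.0496) belongs to a family of near-identical kallikrein genes that can share reads and is uncertain for that reason, and with the mouse as a block its adjusted p was 0.0518. Dcstamp, needed for fusion of macrophages and osteoclasts, rose from 22.7, 26.2 and 23.4 CPM to 32.1, 44.4 and 40.4 CPM (0.69, SE 0.17, adjusted p 0.0238). It was the 1 call among 10 fusion genes tested. Of 18 clock genes tested 1 rose (5.56%), 1 fell (5.56%) and 16 did not pass, with a median of -0.13. Over all genes tested 3.06% rose and 2.34% fell, so 1 call each way is no result about the clock. Bhlhe40 rose (0.43, SE 0.08, adjusted p 0.00690) and Nr1d2 fell (-0.68, SE 0.16, adjusted p 0.0214). Among 10 Arp2/3 subunits Arpc2 fell, from 765, 777 and 777 CPM to 640, 673 and 651 CPM (-0.24, SE 0.06, adjusted p 0.0323), and 0 rose. The call of Arpc2 was lost in 15 of 23 alternatives, among them the 12 WT libraries without any 1 mouse. Of the 84 named genes past the threshold, 74, 78 and 80 lost their call without mouse 63, 65 and 66. In the fit of the 12 WT libraries 0 of the 84 lost it, and 9, 11 and 22 did when that fit left out the same mice. Limma on log2(TPM + 1) lost 23 of the 84, thinning to equal depth lost 5 and the mouse as a block over 24 libraries lost 2. The 5 lost on thinning were all genes lower on day 9, whose libraries were shallower: Adgre4, Dmpk, Ptgs2, Itgb1 and Dnaja1.

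Other lists held 1 to 3 calls each. Over all genes 5.40% passed, and a list's share near that is no result about the list. C5ar1, the receptor for complement fragment C5a, fell from 252, 257 and 249 CPM to 145, 142 and 128 CPM (-0.87, SE 0.21, adjusted p 0.0204). Itgb1, the integrin beta 1 chain, also fell (-0.30, adjusted p 0.0478), and with Itgax these were the 3 calls among 18 chemokine and adhesion receptors. Of 26 immediate early genes 2 fell, Klf6 (-0.30, adjusted p 0.0362) and Ier5 (-0.34, adjusted p 0.0417), while Fos (-0.05), Jun (-0.06) and Egr1 (-0.03) did not pass. Mcl1, a survival factor of the Bcl-2 family, fell from 649, 628 and 668 CPM to 492, 527 and 559 CPM (-0.30, SE 0.07, adjusted p 0.0164), the 1 call among 17 genes of the GM-CSF and STAT5 response. Trib3, a stress-induced pseudokinase, rose from 6.53, 7.27 and 5.74 CPM to 8.92, 11.3 and 9.04 CPM (0.58, SE 0.15, adjusted p 0.0315), the 1 call among 27 genes of amino acid supply. Scarb2, a membrane protein of lysosomes, fell among 34 lysosomal genes (-0.33, adjusted p 0.0350). Of 12 heat shock genes 1 passed, Dnaja1 (-0.24, adjusted p 0.0465), which missed with the mouse as a block (adjusted p 0.0588) and which Smu1 overlaps on the opposite strand with 71.9% of its counts.

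Large housekeeping groups held almost no calls in the fit over all 24 libraries. None of 36 ribosomal protein genes passed (median 0.06, range -0.09 to 0.22), and none of 36 oxidative phosphorylation genes did (median -0.02, range -0.16 to 0.10). None of 20 aminoacyl-tRNA synthetases (median 0.01) or 24 chaperones of the endoplasmic reticulum (median -0.125) passed, and none of 29 glycolysis and hypoxia genes did, measured under 30 identifiers (median -0.00233). Ribosome biogenesis genes had negative values in 29 of 30 cases with a median of -0.16, and 1 passed, Tsr1 (-0.35, adjusted p 0.0351), which Srr overlaps on the opposite strand with 21.4% of its counts. Of 11 LXR targets none passed, and 1 did with the mouse as a block, the cholesterol exporter Abcg1 (0.28, block adjusted p 0.0328). Apoe, a carrier of cholesterol, stood at 899, 959 and 846 CPM on day 8 and at 444, 472 and 371 CPM on day 9, without overlap (-1.07, SE 0.41, adjusted p 0.122). Over 23 alternative fits its log2 fold change stayed at -1.14 to -0.977, while its adjusted p ran from 2.92e-08 to 0.42. The lowest adjusted p over those fits was also under 0.05 for Abcg1 (0.00324), Pkm (0.013), Hspa5 (0.0342) and Calr (0.0422). It was not for Gapdh (0.131), Atp5b (0.136), Aars (0.399) or Nars (0.398). The 0 counts of these lists thus depend on the fit.

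The same interval in KO cultures was compared with 6 other libraries, which enter the same fit and share its estimate of the spread. It gave 338 genes past the threshold (2.33%), 190 higher (1.31%) and 148 lower (1.02%). Of the 445 genes higher in WT, 441 had a positive value in KO (99.1%), against 78.9% of all genes with a positive WT value. Of the 340 lower genes, 336 had a negative value in KO (98.8%), against 78.3% of all genes with a negative WT value. Genes past the threshold in both genotypes numbered 136 higher, which is 30.6% of the WT genes and 71.6% of the KO genes, and 104 lower, which is 30.6% and 70.3%. The median over the 445 genes was 0.876 in WT and 0.641 in KO, and over the 340 genes -0.425 and -0.306. Since the genes were chosen on WT values, the smaller KO medians are a description.

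The difference of the 2 changes was tested as an interaction, and 0 of 14535 genes passed (0%) with edgeR, while 171 had an unadjusted p under 0.05. DESeq2's Wald test and limma on log2(TPM + 1) also called 0, with 136 and 175 genes at an unadjusted p under 0.05. No change between day 8 and day 9 is thus shown to differ between WT and KO. Sod2 changed by -0.83 in WT and -0.89 in KO (adjusted p 0.000111), Sdc4 by -1.36 and -1.24 (adjusted p 0.000134), Cenpa by 0.81 and 0.85 (adjusted p 0.00155) and Epx by 2.33 and 2.07 (adjusted p 0.00340). The mitosis list had a median of 1.32 in WT and 1.15 in KO, with 28 and 4 of 40 genes higher. The interferon-stimulated list had -0.51 and -0.17, with 14 and 0 of 38 lower, and Ifit1 stood at -1.40 and -0.76 (unadjusted interaction p 0.113). The KO libraries were more scattered, for example at 444 to 1300 CPM summed over the mitosis list on day 8 where the WT libraries were at 631 to 782 CPM. The KO count moved from 338 to 210, 547 and 20 without mouse 64, 67 and 68, and to 136, 100 and 91 without WT mouse 63, 65 and 66, which enter the shared spread. With the 6 KO libraries alone it was 0, with 1654 genes at an unadjusted p under 0.05.

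**Figure D5:**
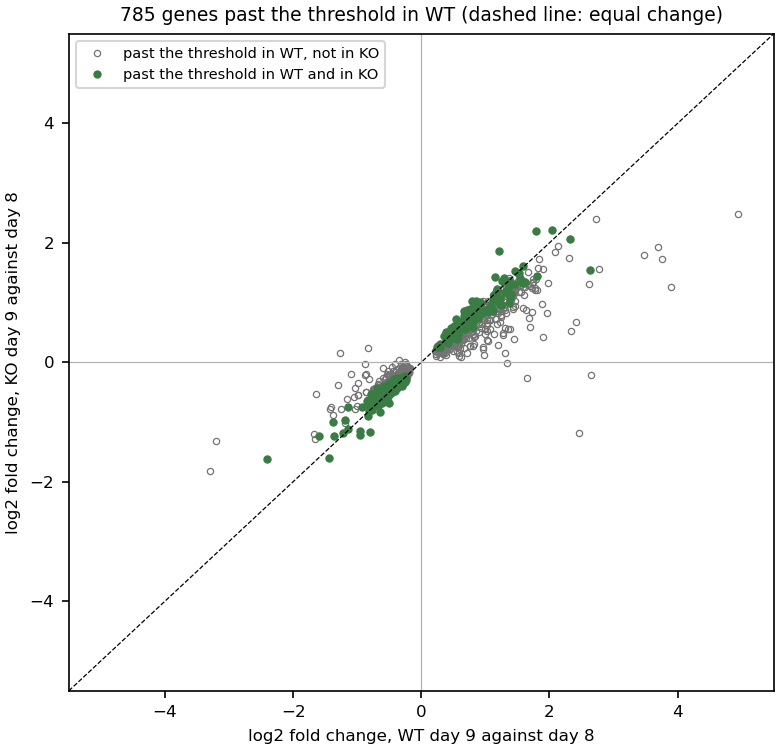
Each point is 1 of the 785 genes past the threshold in WT, with the log2 fold change of day 9 over day 8 in WT on the horizontal axis and in KO on the vertical axis; filled points also passed in KO, and the dashed line marks equal change. Most points lie in the lower left and upper right of the plot, 336 and 441 of them with matching sign, and many lie nearer to 0 in KO.

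Values on all 4 days place this step within the WT series. The libraries of day 7 and day 10 are others from the same 3 mice, and they enter the same fit and its shared spread. Between those days 5376 genes passed (37.0%), and 3554, 3554 and 3255 did without mouse 63, 65 and 66. Of the 445 genes higher on day 9 than on day 8, 223 were also higher on day 10 than on day 7 (50.1% of the 445 and 8.12% of the 2746 genes higher there) and 62 were lower (13.9%). Of all genes tested, 18.9% were higher there and 18.1% lower. Of the 340 lower genes, 108 were lower on day 10 (31.8% of the 340 and 4.11% of 2630) and 58 were higher (17.1%). The share of opposite calls was thus below the background for the higher genes and near it for the lower ones. The summed level of mitosis genes was 381 to 468 CPM on day 7, 631 to 782 on day 8, 1457 to 1907 on day 9 and 1851 to 2384 on day 10. The interferon-stimulated list stood at 1140 to 1293, 1794 to 1974, 1406 to 1424 and 1405 to 1754 CPM on those days. The NF-kB list stood at 3244 to 3402, 6187 to 6434, 4549 to 5228 and 3136 to 3641 CPM, and the eosinophil list at 154 to 205, 82.3 to 98.3, 155 to 173 and 261 to 330 CPM. For both falling lists, day 8 was the highest of the 4 days, and for the eosinophil list it was the lowest. Sod2 means were 84.6, 226.5, 127.5 and 95.4 CPM on days 7 to 10, and Cdkn1a means were 308.5, 761, 527.5 and 451.5 CPM.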

How the data were processed

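Polyadenylated RNA from 24 bone-marrow-derived dendritic cell cultures was sequenced, from 3 mice of each genotype on each of 4 days, and the 6 WT libraries of days 8 and 9 are the subject here. The authors deposited a table of raw gene counts and a table of TPM values over 55487 gene identifiers. Reads were processed with FastQC 0.11.9, STAR 2.6.1 and DESeq2 1.22.2 on mm10, per the submitters' processing notes. The counting tool, strand setting and annotation are not given in the sources used here. Library kits of 2 kinds are named in the labels' protocols without saying which library had which, and a difference of kit between the days was not tested.

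From the deposited counts, genes were filtered with edgeR 4.0.16 (filterByExpr, 14535 kept), scaled by TMM and fitted by edgeR's quasi-likelihood test in R 4.3.3, with 8 group means over all 24 libraries and 16 residual degrees of freedom, so that WT and KO libraries share 1 estimate of the spread. P-values were adjusted by Benjamini-Hochberg over all genes tested, with a threshold of 0.05. The edgeR test was also run on simulated counts, drawn independently for each library from WT day 8 means. The simulation held neither the pairing of mice nor the wider KO scatter. Its outcome is not reported here and is no check of the calls. The 6 libraries held 19952047 to 28651870 counts, and all 24 held 19952047 to 31049798. Reads carried no molecular identifiers, so counts include PCR duplicates. Replicates of a group differed beyond sampling noise, with a chi-square of 7.1 to 17.5 per degree of freedom.

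The genes named are, for each direction, the 12 that changed most and passed, leaving out those averaging a log2 CPM of 1 or less, those known only by a predicted-gene symbol and those whose days overlapped, plus up to 4 members past the threshold with the smallest p in each of 40 lists (841 symbols), or up to 2 abundant members where none passed. Further members of a list are given by value only to fill out its count, and some genes are not reported here. Members and lists were chosen with earlier results of these data known. Mice pair the days: the same 3 animals gave both, and same-mouse deviations from the group means correlated at 0.737, 0.511 and 0.38 over 11111 genes. Deviations of different mice correlated at -0.563 to 0.247. Deviations from a mean of 3 sum to 0, so these correlations are not independent of each other. The fit without a block for the mouse is the one reported. Alternatives were DESeq2 1.42.0 (size factors and Wald test), limma 3.58.1 on log2 of the deposited TPM with pseudocounts of 1 and 0.1, other filters, fewer libraries, the mouse as a block, and leaving out mice or libraries. Thinning to equal depth and the 12 WT libraries without each mouse were added after the data were seen.

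Promoters (250 bases before to 50 after the start) came from RefSeq on GRCm38.p6. Other gene positions came from the GRCm38 annotation, matched by identifier for 55394 of 55487 identifiers when versions are ignored.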

Additional observations from a re-analysis of the deposited data

How the results depend on the processing

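No call of the comparison of WT day 9 with day 8 reversed its direction in any alternative run, but the number of calls (785, with 445 higher and 340 lower) changed with the alternative. DESeq2's Wald test gave 1325 calls (705 higher and 620 lower), the 12 WT libraries alone gave 2113 (1254 and 859) and the 6 libraries of the 2 days alone gave 2180 (1280 and 900). Limma on log2(TPM + 1) gave 521 calls with 201 lower, and on log2(TPM + 0.1) 521 with 193 lower. The median log2 fold change of all genes was 0.0377 and 0.0451 in these fits. A minimum log2 fold change of 1 left 218 (191 and 27). Leaving out a mouse or a library gave 17 to 459 calls, with 6 to 299 higher and 11 to 181 lower. In the fit of the 12 WT libraries, leaving out mouse 63, 65 or 66 gave 710, 772 and 568 higher genes. The share of calls that were higher, 56.7%, became 66.6% without a filter, 28.6%, 44.7% and 35.3% without mouse 63, 65 and 66, and 70.4% and 68.9% in the 12 WT libraries without mouse 65 and 66. DESeq2's size factors (802), no filter (856), a minimum of 50 counts on average (830) and thinning to equal depth (737) stayed near the reported count.

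With the mouse as a replicate block over all 24 libraries 805 genes passed (463 and 342), 683 of them among the 785, and over the 12 WT libraries 2780 passed (1588 and 1192). Among the named genes the block over 24 libraries changed only the calls of Dnaja1, Klk1b9 and Abcg1.

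In KO the count of 338 became 868 with DESeq2's Wald test, 597 without a filter and 0 with the 6 KO libraries alone, and ran from 20 to 547 when a mouse was left out. Day 10 against day 7 in WT ran from 3255 to 3554 when a mouse was left out. The cause of these shifts was not tested. Genes at a few counts per library limit the precision of the largest fold changes.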

Other observations

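Some genes with strong changes lay outside the rule for naming genes and were chosen after their values were seen. Traf3, an adaptor that restrains the alternative NF-kB pathway, fell from 72.4, 77.6 and 73.4 CPM in mice 63, 65 and 66 on day 8 to 53.9, 49.0 and 51.6 CPM on day 9 (log2 fold change -0.53, SE 0.06, adjusted p 5.52e-05 by edgeR's quasi-likelihood test with Benjamini-Hochberg adjustment). Spp1, the secreted matrix protein osteopontin, rose from 2056, 2266 and 1602 CPM to 3626, 4641 and 3735 CPM (1.02, SE 0.29, adjusted p 0.0433). Coro6, of the coronin family of actin-binding proteins, rose from 0.03, 0.11 and 0.20 CPM to 1.93, 1.12 and 1.73 CPM (3.75, SE 0.54, adjusted p 0.000759), and its low day 8 level makes the size of that change imprecise. Tnfrsf13c, the receptor for the B cell factor BAFF, rose from 0.14, 0.46 and 0.36 CPM to 1.83, 1.44 and 2.63 CPM (2.63, SE 0.39, adjusted p 0.000905).

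Rasgef1b, a guanine nucleotide exchange factor for small GTPases, fell in WT from 36.8, 37.6 and 47.3 CPM to 18.9, 19.3 and 18.7 CPM (-1.10, SE 0.13, adjusted p 0.000156). Its KO value over the same interval was -0.19 (adjusted p 0.464). The difference of the 2 changes had an unadjusted p of 9.84e-05 and an adjusted p of 0.999 over all genes tested, so it did not pass.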
